A study of Oryza sativa with 10 samples.

Results

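BioCyTASQ in vitro gave 49471 called peaks on rice chromosomes 1 to 12, of 132054 called peaks in the 3 distinct lists of the series. They are all rows of the list deposited for this bait, 49898 rows, after rows that carried the same peak name had been joined into one peak. BioCyTASQ is a small molecule with a biotin handle, one of the template-assembled synthetic G-quartets (TASQs), and DNA bound to it is recovered on streptavidin beads. The BioCyTASQ group had 2 libraries, which the protocol text calls biological replicates, and its in vitro controls were biotin alone and input, with 1 library each. All libraries of the series came from seedlings of the japonica rice cultivar Nipponbare, 2 weeks old and fixed with 1% formaldehyde for 10 min. The other groups of the series were BioTASQ in vivo and BioTASQ in vitro, with 2 libraries each, and biotin alone and input of the in vivo set, with 1 library each, which makes 10 libraries in 7 groups.

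A G-quadruplex forms where a guanine-rich strand folds so that guanines pair in flat quartets, which stack and hold potassium ions between them. A TASQ molecule carries guanines that can fold into a quartet of its own, and this synthetic quartet stacks on a natural one, so the bait reads structure rather than one fixed sequence. Guanine-rich stretches that can fold in this way lie in gene starts, introns and repeats of plant genomes. The bases under the peaks, and the genes beside them, were not analysed here, so the label of G-quadruplex capture could not be checked against sequence. The labels say only "vitro" for the condition. Their protocol text is the same for all libraries, describes fragmented chromatin from fixed seedlings as the material and names BioTASQ for the amount of bait. How the in vitro material differed from the in vivo material is therefore not known here, which limits what any comparison between them means.

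The list was 1 for the group and not 1 per library, so no value has an error between replicates. The spread given in its place is that over the 12 chromosomes, which are spatial units that share the same libraries and not replicates. Positions start at 1 and follow the list's own rice build, whose name the sources used here do not give. Read totals per library were not analysed here. Instead, 2 numbers were recovered for each peak from its fold and p-value: the pileup, which is the count of fragments stacked at the summit, and the control level, which is the count its background predicted. A whole pileup came out for 100% of the peaks, within 0.001 on the −log10 p scale.

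Few called peaks showed a cut. Of the 49471 peaks, 411 were spread over several rows, 395 of them over 2 rows and 16 over 3. Between these rows 427 stretches were missing, with a shortest length of 175 bp, a median of 202 bp and a longest of 1104 bp. The smallest gap between neighbouring peaks was also 175 bp, and only 229 peaks (0.463%) were narrower than that. The summit lay beyond the end of the peak in 586 peaks, and with those in several rows 995 peaks (2.01%) showed that part had been removed after calling. A peak trimmed with its summit still inside could not be told from a whole one, so this share is a lower bound. The 995 cut peaks had a lower control level than the others, with a median of 9.21 fragments against 12.4, and a lower fold enrichment, 3.17 against 3.92. The cuts were not those of the BioTASQ in vivo list, whose joined peaks had 4360 missing stretches, of which 0 had the same edges as a BioCyTASQ stretch.

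Whole peaks were also absent. Peak names ran to number 51999, in order along each chromosome, and 2528 numbers (4.86%) were missing. A missing number must have lain between the peaks numbered on either side of it, so the places can be read from the list. At most 5 numbers in a row were missing between neighbours, and 95.4% of neighbouring peaks had consecutive numbers. The 2295 pairs of neighbours with missing numbers between them had a median gap of 9057 bp, against 3159 bp for those with consecutive numbers. Taking out a peak joins the gaps on both sides of it, so longer gaps follow from the removal itself. The medians therefore do not show whether the missing peaks lay in sparse places. The missing share ran from 4.11% on chromosome 3 to 6.10% on chromosome 12, with the other 10 chromosomes between them.

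BioCyTASQ peaks were narrow, with a long tail of broad ones. The median width was 415 bp, and the middle 50% lay between 296 and 637.5 bp. Of all peaks, 9.95% were at least 1000 bp wide. These broad peaks held 28.6% of the 27.3 Mb that the list covered, which is 7.31% of the genome. Width hardly varied between chromosomes, from a median of 407 bp on chromosome 3 to 421 bp on chromosome 11. In peaks that showed no cut the summit sat near the centre, with a median offset of 48 bp, and 71.2% of summits fell in the middle 40% of the width.

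The widest peak lay on chromosome 2 from 29644009 to 29654279. It was 10271 bp wide, in a single row, with a fold enrichment of 11.5, a pileup of 152 fragments and a control level of 12.3. The next widest was 9884 bp on chromosome 5 (1092136 to 1102019), with a fold of 10.9. The third was 6917 bp on chromosome 1 (16575543 to 16582459), in 2 rows, with a fold of 9.83. The BioTASQ in vivo list had 6, 4 and 4 separate peaks overlapping these 3 regions. The list deposited for both BioTASQ in vitro and BG4, an antibody fragment against G-quadruplexes, had 0 overlapping each. These 2 lists serve below only as background.

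Fold enrichment is the ratio of peak to control that the authors deposited, and it had a median of 3.90 and ran from 1.25 to 20.8. Few peaks stood at either end: 3.54% had a fold of 10 or more and 3.79% a fold of 2 or less. The median pileup was 61 fragments over a median control level of 12.4. The control level was at its lowest value, 8.14 fragments, in 12.4% of the peaks, and above 50 in 1.35%. Only 58 peaks (0.117%) had a pileup above 500. The highest pileup, 9375 fragments, was on chromosome 6 near its start (56078 to 56604), where the control level was 1643 and the fold 5.70. The next were 2308 fragments on chromosome 5 (29907726 to 29907942, control 469, fold 4.91) and 2285 on chromosome 11 (12164481 to 12164860, control 434, fold 5.26). The background was high at these 3 peaks as well, and their folds were far below the highest of the list.

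BioCyTASQ peaks were close together. The median gap from the end of a peak to the start of the next was 3388 bp, although the mean was 6987 bp. Of all gaps, 12.5% were at most 500 bp, 27.5% at most 1 kb and 39.9% at most 2 kb, and 291 gaps (0.588%) exceeded 50 kb. Each peak's nearest neighbour was a median of 1259 bp away. In all, 29575 peaks (59.8%) had a neighbour within 2 kb, here called clustered, and 3514 (7.10%) had none within 10 kb, here called isolated. These names mark distance only: both shares also depend on the number of peaks, and no share for random placement is given here.

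Short gaps were most frequent just above the smallest gap of 175 bp, fell in number with length and had a second high point at 600 to 700 bp. Per bp of length there were 25.2 gaps from 175 to 200 bp, 24.3 from 200 to 250 bp and 21.4 from 250 to 300 bp. In bins of 100 bp, 2286 gaps were 200 to 300 bp long, 1511 were 400 to 500 bp, 1752 were 600 to 700 bp and 898 were 1000 to 1100 bp. Gaps of 600 to 700 bp outnumbered those of 400 to 500 bp on 11 of 12 chromosomes, the exception being chromosome 2 with 118 and 131. In bins of 50 bp the low point before it was 450 to 500 bp, with 701 gaps, and the high point 600 to 650 bp, with 879. All 701 and 877 of the 879 lay between peaks with consecutive numbers, with no numbered peak missing in between. Measured from summit to summit, the most frequent distance was 1250 to 1500 bp, in 6.57% of neighbours. The bin of 600 to 700 bp held 3.54% of BioCyTASQ gaps, 2.02% of in vivo gaps and 1.07% of BG4/BioTASQ in vitro gaps. The in vivo line was flatter and highest at 700 to 800 bp (2.20%), and the BG4/BioTASQ in vitro line fell to 0.819% at 800 to 900 bp with a later high point of 1.25% at 1200 to 1300 bp. These shapes were not tested.

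**Figure D1:**
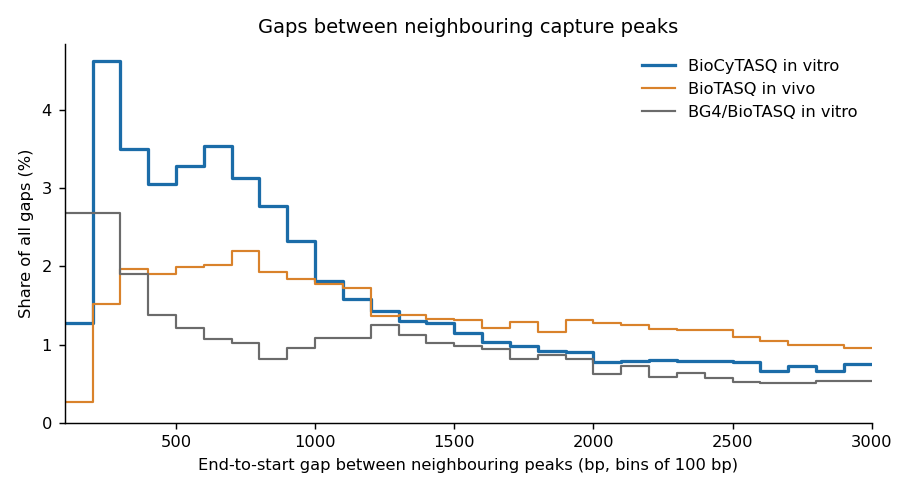
Share of all gaps (y axis, %) by gap length (x axis, bp, bins of 100 bp, up to 3000 bp) in each list; a gap runs from the end of a peak to the start of the next. The bin of 100 to 200 bp is only partly filled for BioCyTASQ, since no gap is shorter than 175 bp. From 4.62% at 200 to 300 bp the BioCyTASQ line falls to 3.06% at 400 to 500 bp and has a second high point at 600 to 700 bp (3.54%).

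Peaks facing each other across gaps of 600 to 700 bp were the widest of the 6 gap lengths compared. Their median width was 518 bp, against 435.5 bp at gaps of 200 to 300 bp, 481 bp at 400 to 500 bp, 443.5 bp at 1000 to 1100 bp, 406 bp at 2000 to 3000 bp and 391 bp at 10000 to 20000 bp. Their fold hardly differed from that at 200 to 300 bp, 3.64 in both. Neighbours across the shortest gaps were also the most alike in strength. The Spearman correlation between the fold of a peak and that of the next was 0.26 over 6178 pairs at gaps of at most 500 bp. It was 0.09 over 7438 pairs at 500 to 1000 bp and 0.16 over 6112 pairs at 1000 to 2000 bp, so the fall was not steady. At 2 to 5 kb it was 0.06 over 9554 pairs, and at 20 to 50 kb it was -0.01 over 3911 pairs. Close neighbours share a local control level, whose own correlation was 0.37 in the shortest class, so this likeness is a description only.

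Linking peaks whose gaps were at most 2 kb gave 9847 chains of 2 peaks or more, and 19896 peaks (40.2%) stood alone. Chains of 5 or more held 17.5% of all peaks, and 106 chains held 10 or more. Chromosome 5 had 15 of these longest chains, 5.01 per 10 Mb, and chromosome 6 had the lowest rate with 5, or 1.60 per 10 Mb. Fold was lower in longer chains. The median fold was 4.25 for single peaks, 3.98 for chains of 2 to 4, 3.59 for 5 to 9 and 3.52 for 10 or more, where for chains it is the median over chains of their median peak.

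The chain with the most peaks lay on chromosome 9 from 10630379 to 10664245. It held 25 peaks in 33867 bp, of which 56.0% was covered, and their folds ran from 1.82 to 9.57 with a median of 4.01. The second, on chromosome 2 from 31862374 to 31899705, held 24 peaks, covered 62.3% of its 37332 bp and was far stronger, with a median fold of 8.05 and a highest of 14.2. The third, on chromosome 12 from 8455222 to 8478468, held 19 peaks with a median fold of 3.17. The largest chains were thus unlike in strength, while their control levels were close, with medians of 10.4, 10.7 and 10.3 fragments. The in vivo list had 14, 23 and 8 peaks in these stretches and the BG4/BioTASQ in vitro list 5, 5 and 4.

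**Figure D2:**
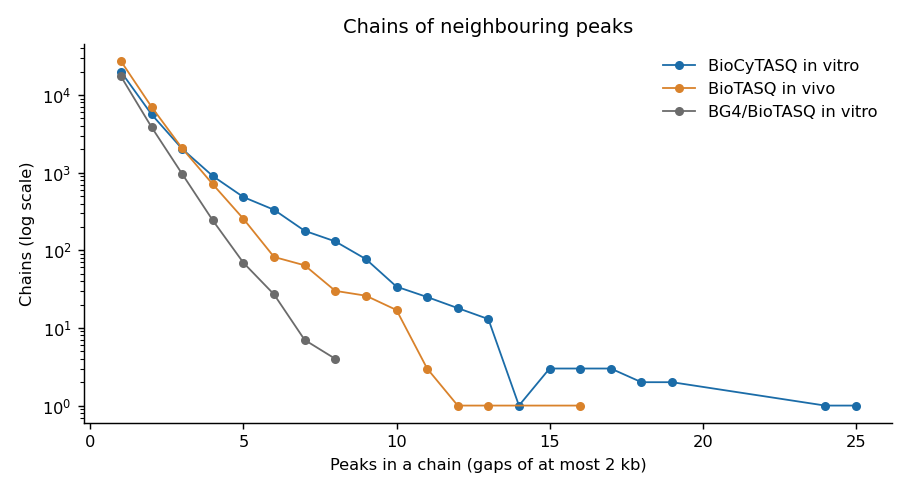
Number of chains (y axis, log scale) by the number of peaks in a chain (x axis), with peaks linked where the gap was at most 2 kb; each line is a list. BioCyTASQ chains reach 25 peaks, in vivo chains 16 and BG4/BioTASQ in vitro chains 8.

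Density along the genome was uneven at the 3 window sizes used. Windows of 1 Mb held 70 to 263 peaks with a median of 130, over 367 windows. The variance of the count over its mean, which is about 1 for peaks placed independently at an even rate, was 1.48 in windows of 10 kb, 2.85 in windows of 100 kb and 7.01 in windows of 1 Mb. Windows of 10 kb had no peak in 33.6% of cases and up to 10 peaks. By chromosome the density ran from 117 peaks per Mb on chromosome 3 to 146 on chromosome 10, with a mean of 134 ± 9.99 (SD, n = 12 chromosomes). The long chromosomes 1, 2 and 3 had the lowest densities with chromosome 11, between 117 and 126 per Mb.

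Peaks were denser in the inner part of most chromosomes than near the ends. With each chromosome divided into 10 equal segments, the segments at both ends held 113 ± 14.7 peaks per Mb and the 2 middle segments 145 ± 17.0 (SD, n = 12 chromosomes), a log2 ratio of -0.35 (SD 0.27) or 0.782 times. The ends were lower on 10 of 12 chromosomes (p = 0.00293, exact two-sided sign-flip permutation test over chromosomes, and 0.00293 after Benjamini-Hochberg adjustment over 12 comparisons). The exceptions were chromosome 4, with a log2 ratio of 0.27, and chromosome 9, with 0.05. In the outer 1 Mb at each end the density was 104 ± 15.3 per Mb, against 136 ± 10.6 in the rest of the chromosome.

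The profile was not symmetric. Density was highest in segment 4 from the start, at 164 ± 33.3 peaks per Mb, and lowest in segment 10, at 106 ± 13.3, while segment 1 had 121 ± 28.3 (SD, n = 12 chromosomes). Chromosomes differed most in segments 1 to 4, where the SD was 22.0 to 33.3, and least in segments 7 to 9, where it was 6.57 to 8.06. Clustering followed the same course, with 67.8% ± 7.68 of peaks having a neighbour within 2 kb in segment 4 and 51.5% ± 5.28 in segment 10. Denser peaks lie closer together, so clustering here is not independent of density. Fold took the opposite course, 3.64 ± 0.17 in segment 4 and 4.24 ± 0.18 in segment 9. The BG4/BioTASQ in vitro list had a profile of like shape, with 73.4 peaks per Mb in segment 1, 92.3 and 92.7 in segments 4 and 5 and 66.0 in segment 10. The BioTASQ in vivo list ran from 132 to 154 per Mb and was highest in segment 8. The profiles of the lists were not tested against each other.

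**Figure D3:**
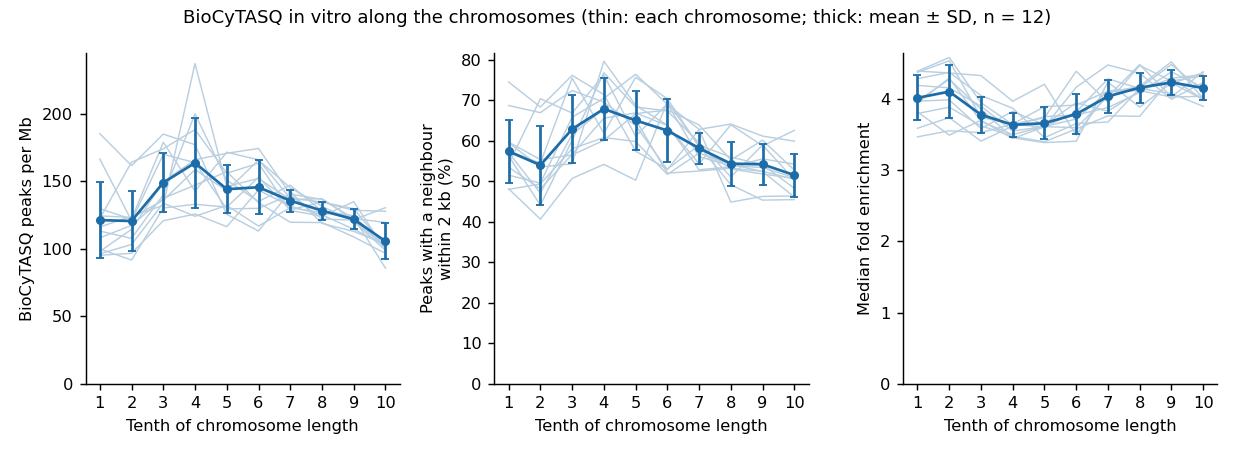
BioCyTASQ peaks per Mb, share of peaks with a neighbour within 2 kb (%) and median fold enrichment (y axes) in each of 10 equal segments of chromosome length (x axis, 1 at the start of the chromosome); thin lines are the 12 chromosomes, thick lines their mean ± SD. Density and clustering are highest in segment 4 (164 per Mb and 67.8%), and the median fold is lowest there (3.64).

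The densest 1 Mb window was on chromosome 6 from 18000001 to 19000000, with 263 peaks, of which 81.7% were clustered. The next were on chromosome 5 from 10000001 to 11000000, with 261 peaks, and on chromosome 4 from 3000001 to 4000000, with 236. Their median folds of 3.58, 3.55 and 3.23 were below the 3.90 of the list. The window on chromosome 4 lies near the start of one of the 2 chromosomes whose ends were not sparser than their middle. The sparsest windows were on chromosome 3 from 5000001 to 6000000, with 70 peaks, and on chromosome 11 from 4000001 to 5000000 and 5000001 to 6000000, with 73 and 77. They had median folds of 4.86, 4.49 and 4.81, all above that of the list. The in vivo list had 167, 168 and 177 peaks in the dense windows and 124, 109 and 103 in the sparse ones.

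The longest stretch without a BioCyTASQ peak was 356.9 kb on chromosome 11, from 12198008 to 12554863. The next were 173 kb on chromosome 2 (13607091 to 13780049) and 165 kb on chromosome 7 (12119535 to 12284181). The numbers of the flanking peaks were consecutive in all 3, so no numbered peak was missing from them. The stretches were not empty in the BG4/BioTASQ in vitro list, which had 2, 11 and 5 peaks overlapping them, and the in vivo list had 0, 0 and 2.

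Stronger BioCyTASQ peaks were broader. The strongest 20% of the peaks of each chromosome by fold had a median width of 578 ± 17.5 bp and the weakest 20% had 285 ± 5.31 bp (SD, n = 12 chromosomes). The log2 ratio was 1.02 (SD 0.05) or 2.03 times, positive on 12 of 12 chromosomes (p = 0.000488, exact sign-flip permutation test, the smallest p that 12 chromosomes can give, and 0.000533 adjusted over 12 comparisons). Ranked by pileup the log2 ratio was 1.44. With all peaks in 5 equal bins by pileup, the median width from the lowest bin to the highest was 275, 332, 371, 467 and 752 bp. Height and width come from the same fragments, and a caller extends a peak for as long as it stays above background, so the 2 measures are not independent.

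Control level had a different relation to strength. In 5 equal bins from the lowest control level to the highest, median pileup was 38, 43, 54, 74 and 110 fragments, and the median fold 4.17, 4.06, 4.13, 4.12 and 3.30. The fold was thus nearly flat until the bin with the highest background, where the control level had a median of 29.5 fragments. Width was 348 bp in the lowest and 553 bp in the highest bin.

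Clustered BioCyTASQ peaks were broader than isolated ones and had a lower median fold. The median width was 442 ± 5.998 bp in clustered and 375 ± 20.8 bp in isolated peaks (SD, n = 12 chromosomes), a log2 ratio of 0.24 (SD 0.09). Clustered peaks were also at least 1000 bp wide more often, 13.7% against 3.04%. Gaps run from the end of a peak to the start of the next, so a wider peak lies nearer its neighbours. Width and clustering are therefore not independent measures. The median fold was 3.70 ± 0.14 in clustered and 4.12 ± 0.07 in isolated peaks, a log2 ratio of -0.16 (SD 0.06). The 16382 peaks between these groups had a median width of 387 bp and a median fold of 4.27, so fold did not rise steadily with isolation. The recovered control level was 12.1 ± 0.25 in clustered and 13.2 ± 0.54 fragments in isolated peaks, a log2 ratio of -0.12 (SD 0.05). Each held on 12 of 12 chromosomes (p = 0.000488, exact sign-flip permutation test, adjusted p = 0.000533). Clustered peaks also had a lower median pileup, 57 fragments against 65. They were frequent at both ends of the pileup, however: from the lowest of the 5 pileup bins to the highest, 70.1%, 62.7%, 49.7%, 51.5% and 64.9% of peaks were clustered. Over the 5 control-level bins the clustered share had no steady course, at 60.1%, 61.2%, 59.9%, 55.8% and 61.9% from lowest to highest. By chain length the median control level was 12.4 fragments for single peaks, 14.0 for chains of 2 to 4, 11.2 for 5 to 9 and 10.7 for 10 or more. Among peaks in the middle 3 of 5 control-level bins the log2 ratio of fold was -0.21, negative on 12 of 12 chromosomes. Within pileup bins it was -0.02 (p = 0.115, exact permutation test). Fold is computed from both pileup and control level, so pileup bins hold much of the fold fixed, and the control-level setting also limits it. Whether the lower fold of clustered peaks went with pileup or with control level was not tested. The log2 ratio of width within pileup bins was 0.29.

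Over all pileups, clustered peaks lay on a BioTASQ in vivo peak less often than isolated ones. Of the in vivo peak numbers 35.0% were missing, so a BioCyTASQ peak without overlap may lie where an in vivo peak was removed. The part of this removal in the shares below was not tested. The share was 56.7% ± 2.35 of clustered and 67.2% ± 3.24 of isolated peaks (SD, n = 12 chromosomes), a difference of -10.6 percentage points (SD 4.21, negative on 12 of 12 chromosomes, p = 0.000488, exact sign-flip permutation test, adjusted p = 0.000533). Peaks between these groups had a share of 66.7%. The shares of clustered and isolated peaks lay farthest apart among weak peaks. In the lowest pileup bin, 19.1% of 6940 clustered and 34.4% of 453 isolated peaks overlapped one. In bin 2 the shares were 32.2% and 48.3%, and in bin 3 they were 58.4% and 64.9%. The order turned in the upper 2 bins, with 84.6% of clustered and 83.2% of isolated peaks in bin 4 and 97.4% and 96.6% in bin 5. The average over the 5 bins, -6.78 points, thus joins bins of opposite direction, and the bins were not tested singly. In the BG4/BioTASQ in vitro list the order was the other way round, with 25.99% of clustered and 19.5% of isolated peaks, a difference that was not tested.

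**Figure D4:**
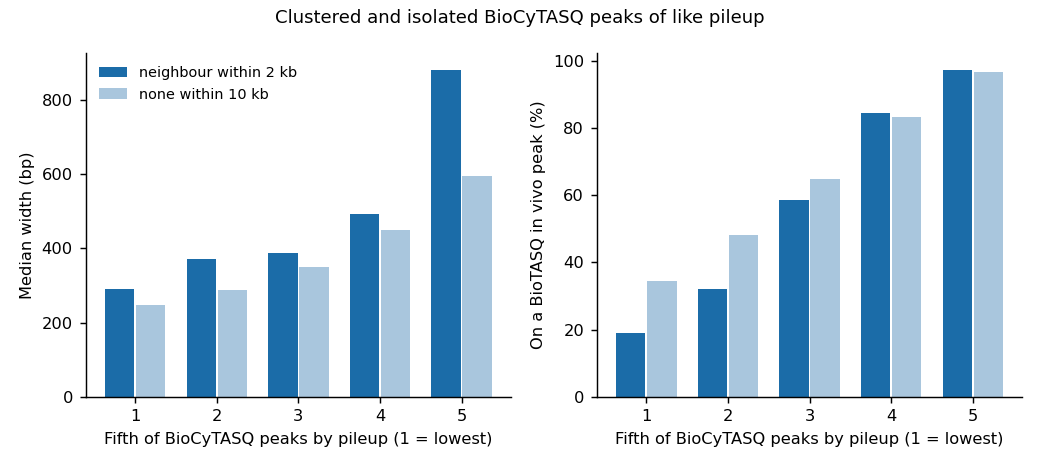
Median width (left, bp) and share lying on a BioTASQ in vivo peak (right, %) of clustered (dark, neighbour within 2 kb) and isolated (light, none within 10 kb) BioCyTASQ peaks, in 5 equal bins of all BioCyTASQ peaks by pileup (x axis, 1 lowest). Clustered peaks are wider in all 5 bins, and the in vivo share is lower for clustered peaks in bins 1 to 3 (19.1% and 34.4% in bin 1) and slightly higher in bins 4 and 5 (97.4% and 96.6% in bin 5).

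Set against the other lists, BioCyTASQ peaks had the most uneven spacing. The coefficient of variation of the summit-to-summit distance, its SD over its mean, was 1.27 ± 0.07 for BioCyTASQ, 1.11 ± 0.07 for BioTASQ in vivo and 1.16 ± 0.06 for BG4/BioTASQ in vitro (SD, n = 12 chromosomes). The differences were 0.16 (SD 0.03) and 0.11 (SD 0.03), each positive on 12 of 12 chromosomes (p = 0.000488, exact sign-flip permutation test, adjusted p = 0.000533). Chromosome 11 had the highest value in each list, and 1.27 in place of 1.45 for BioCyTASQ without its longest distance. With only the 29443 peaks of highest fold in each list, the number in the shortest list, the differences stayed positive on average, at 0.03 (p = 0.0273, exact) against in vivo and 0.01 (p = 0.520, exact) against BG4/BioTASQ in vitro. With rows as deposited the first was 0.10, and with end-to-start gaps the second was 0.19. In the in vivo list 35.0% of peak numbers were missing and 21.6% of peaks showed a cut, against 4.86% and 2.01% for BioCyTASQ. The part of this removal in the difference against in vivo was not tested.

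BioCyTASQ peaks also had a near neighbour more often. The share with a neighbour within 2 kb was 59.9% ± 3.75 for BioCyTASQ, 48.7% ± 1.76 for BioTASQ in vivo and 41.5% ± 2.09 for BG4/BioTASQ in vitro (SD, n = 12 chromosomes). The differences were 11.2 (SD 3.72) and 18.5 percentage points (SD 2.57), and all 12 chromosomes had that direction in both (exact p = 0.000488, and 0.000533 after adjustment). The lists also differed in density, with 134, 142 and 79.4 peaks per Mb in the same order. Denser peaks lie closer together, so the share is not independent of density. For equal numbers of strongest peaks the first difference was 8.98 points, and the second turned round to -1.30 points (p = 0.0742, exact). Against in vivo the difference was 17.0 points for neighbours within 1 kb and 0.31 within 5 kb (p = 0.697, exact). It was 17.5 points with only peaks that showed no cut and 4.71 with rows as deposited, positive on 9 of 12 chromosomes. Of the in vivo peak numbers 35.0% were missing, against 4.86% for BioCyTASQ, and the part of this removal in the difference was not tested.

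BioCyTASQ peaks were 1.82 times as wide as BG4/BioTASQ in vitro peaks, with medians of 416 ± 4.55 bp and 228 ± 3.81 bp, and 1.15 times as wide as in vivo peaks, whose median was 360 ± 6.60 bp (SD, n = 12 chromosomes). The log2 ratios were 0.87 (SD 0.02) and 0.21 (SD 0.03). All 12 chromosomes had the same direction in both (exact p = 0.000488, and 0.000533 after adjustment). The excess over in vivo turned to a log2 ratio of -0.03 (exact p = 0.0229) for equal numbers of strongest peaks, and was 0.12 for peaks of at least 175 bp. The excess over BG4/BioTASQ in vitro was 1.09 and 0.61 in the same settings. The lists did not end at the same threshold, with a lowest −log10 q of 1.31 for BioCyTASQ, 3.01 for in vivo and 3.0002 for BG4/BioTASQ in vitro. With only peaks of at least 3 the log2 ratios were 0.23 over in vivo and 0.90 over BG4/BioTASQ in vitro. A cut can shorten a peak, and 21.6% of in vivo peaks showed one, against 2.01% of BioCyTASQ peaks. With only peaks that showed no cut the log2 ratio over in vivo was 0.20, but trimmed peaks with the summit still inside remain among them.

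**Figure D5:**
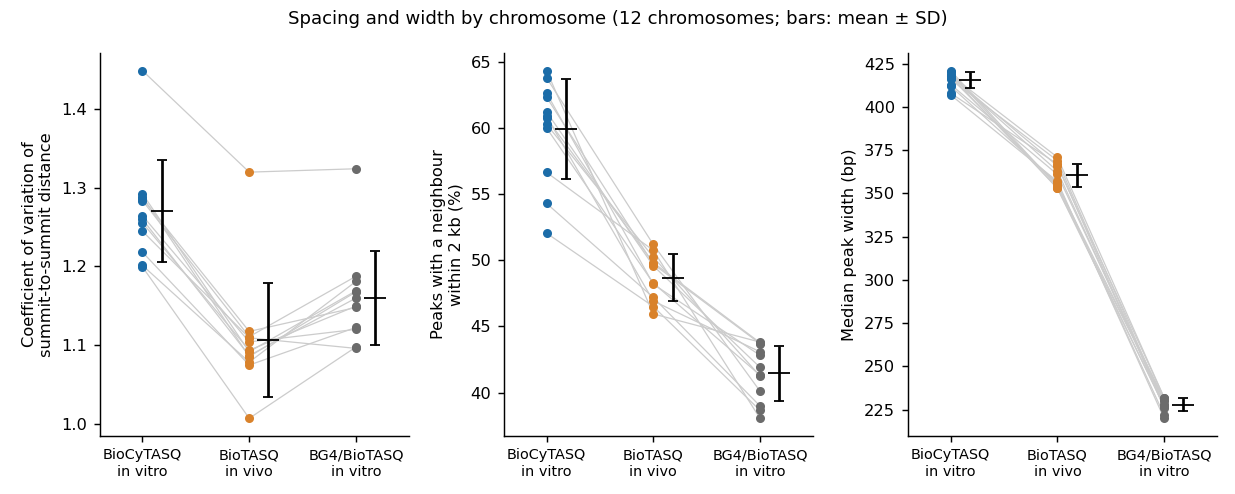
Coefficient of variation of summit-to-summit distance, share of peaks with a neighbour within 2 kb (%) and median peak width (bp) on each of 12 chromosomes (points, joined by grey lines) in each list, with mean ± SD beside them; axes do not start at 0. BioCyTASQ lies above both other lists on 12 of 12 chromosomes in each panel; for equal numbers of strongest peaks the neighbour share against BG4/BioTASQ in vitro (-1.30 points) and the width against in vivo (log2 ratio -0.03) turn round.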

How the data were processed

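Per the labels' protocols, all libraries were sequenced as read pairs. The tools in the submitters' processing notes, whose roles those notes leave out, include the peak caller MACS2 2.1.1, the trimmer Trim Galore 0.4.4, the aligner BWA, SAMtools 1.5 and Picard. The sources used here name no build, control library, q threshold or pooling of replicates, and the deposited peak names of the BioCyTASQ list carry the word biotin. The deposited list has 10 columns in the order of MACS2 narrow peaks. Its deposited score equalled 10 times the −log10 q, rounded down, in 100% of rows. The deposited fold is the ratio of peak to control, and the deposited −log10 p and −log10 q are the authors' own values.

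Rows with the same name were joined from first start to last end. A summit beyond the end was replaced by the centre. Pileup and control level were solved from fold and −log10 p under the Poisson formulas of MACS2. The largest peak end on a chromosome in any list stood for its length (a sum of 373 Mb). Overlap meant at least 1 bp. BioCyTASQ peaks were counted in windows by summit, and peaks of the other lists in a named region or window by overlap. Per-chromosome differences were tested by flipping their signs in all 4096 ways (exact permutation test, two-sided, threshold 0.05), with Benjamini-Hochberg adjustment over 12 comparisons. The list deposited for BG4 was byte for byte that of BioTASQ in vitro and used once, without its 26 repeated rows. Regions were named by rule: the 3 widest peaks, highest pileups, largest chains, longest gaps, and densest and sparsest windows. The choice of this list, the measures and the tests were made with earlier results of these data known. The steps were tested on simulated data. Software was Matplotlib 3.10.9, SciPy 1.17.1, pandas 2.3.3 and NumPy 2.4.6 under Python 3.11.15. Alternatives were stricter q, peaks that showed no cut, rows as deposited, equal numbers of peaks, other cluster distances, measures of strength, end regions, overlap rules and each chromosome left out. Short-gap lengths, neighbour likeness, profiles along chromosomes, windows and strength bins were described without a test, and peaks of 175 bp or more, the middle 3 of 5 control-level bins and pileup bins were added after the data were examined.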

Additional observations from a re-analysis of the deposited data

How the results depend on the processing

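Of 77 values under other settings, leaving a chromosome out aside, 72 kept their direction and side of the threshold of 0.05. With equal numbers of the strongest peaks, the width against BioTASQ in vivo reversed to a log2 ratio of -0.0296 and the neighbour share against BG4/BioTASQ in vitro to -1.30 points, and the difference in coefficient of variation against BG4/BioTASQ in vitro lost the threshold at 0.00865. The neighbour share against in vivo lost it at 0.31 points within 5 kb, and the fold of clustered against isolated peaks at -0.0203 within pileup bins. The cause was not tested for the first 4. Fold is computed from pileup and control level, so pileup bins hold much of it fixed, and bins of control level limit it too. Equal numbers also select by fold, so number and strength change together there. All 144 values with a chromosome left out kept direction and threshold; the log2 ratio of end to middle density ran from -0.41 to -0.33. No paired analysis was possible because the list is 1 for both replicates, and for the same reason no replicate could be left out. Read totals were not analysed, so what depth limits was not tested. Guanine runs at summits were not run, since no genome of the build was used here.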

Other observations

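Across the 367 windows of 1 Mb, more BioCyTASQ peaks went with weaker and wider peaks. In the 25% of windows with the fewest peaks (70 to 114) the median of the window medians was 4.28 for fold and 396.5 bp for width, and in the 25% with the most (148 to 263) 3.61 and 429 bp. The Spearman correlation of the count was -0.56 with median fold, 0.39 with median width and 0.20 with median control level. Windows share libraries and control, and neighbouring windows are alike, so these are descriptions with no p. The share of peaks with a neighbour within 2 kb was 48.6% in the sparsest 25% and 70.8% in the densest 25%. Peaks lie closer together where there are more of them, so the direction of this difference follows from ranking windows by count.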
